A study of Homo sapiens with 32 samples.

Results

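The genes described here are CDX1, CDX2 and ISX, 3 human homeobox transcription factor genes of the intestinal lineage, and the HNF4α binding sites mapped around them in pancreatic cancer cells. They were chosen by name, as 3 of 20033 protein-coding genes, and a peak was assigned to a gene when its summit lay within 50 kb of the gene's RefSeq span. Of 337294 peaks in 18 peak lists, 109 met this rule, and they merged into 26 distinct sites: 15 near CDX1, 9 near CDX2 and 2 near ISX. A site is a set of peaks from any of the lists that overlap by at least 1 bp, and 15 of the 26 sites were found in both libraries of at least 1 group.

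HNF4α is a nuclear receptor of liver, gut and pancreas. Transcription from the P1 or the P2 promoter of its gene yields isoforms that differ at the N-terminus. CDX1 and CDX2 are caudal-type homeobox factors that specify and maintain the intestinal epithelium, and CDX2 and HNF4α are known to bind many of the same enhancers in enterocytes. ISX is an intestine-specific homeobox factor, itself dependent on CDX2, that represses genes of carotenoid uptake and cleavage in response to retinoic acid. CDX2's chromosomal neighbour PDX1 is a master regulator of pancreas development.

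The series maps HNF4α by chromatin immunoprecipitation and sequencing (ChIP-seq) in 3 human pancreatic ductal adenocarcinoma lines, with 18 immunoprecipitated libraries in 9 groups of 2. Another 14 input libraries, made without antibody, were not analysed here. In Panc10.05, doxycycline induced the P1 isoform α2 (P1-a2, 25 ng/mL) or the P2 isoform α8 (P2-a8, 12.5 ng/mL), so dose and isoform cannot be told apart there. In BxPC3 both isoforms were induced with 500 ng/mL. All 8 libraries of these lines used an antibody that recognises every HNF4α isoform (pan-HNF4α), and no uninduced library was analysed here. In ASPC1, for which the labels give no doxycycline, CRISPR interference used a guide against P1 (sgP1), a guide against P2 (sgP2) or a control guide (sgNC). Pan-HNF4α libraries came from each of the 3 genotypes. For sgNC and sgP2 there were also libraries made with a P1-specific antibody. Replicates are not described as separate cultures, so p-values measure the spread between these libraries, which may be technical. Gene expression was not measured in these files, and the lines' identity therefore could not be checked against marker genes.

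List length bears on how many peaks a locus can hold, and it varied widely. The Panc10.05 lists held 24828 and 34146 peaks with P1-a2 and 39111 and 33646 with P2-a8, and the BxPC3 lists held 41808 and 33737 with P1-a2 but 12681 and 14666 with P2-a8. The 6 ASPC1 pan-HNF4α lists held 11686 to 24295 peaks, the P1-antibody lists 697 and 260 in sgNC, and 5200 and 3916 in sgP2. The lowest −log10 q was about 8 in the induced lines and about 2 in ASPC1. Read depth is unknown, and each line's libraries carry a library-name series of their own, so line and series cannot be told apart. Because of this, each peak's fold enrichment is the authors' own value and is given here as a percentile within its list (100 is the strongest). Percentiles from lists of different length describe each list and show no change between lists.

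Across the 14 pan-HNF4α lists, CDX2 had a peak within 50 kb in 14, CDX1 in 12 and ISX in 2. The strongest peak near CDX1 had a median percentile of 81.9 over these lists, from 0 (no peak) to 97.8. For CDX2 the median was 69.0, from 15.2 to 95.2. For ISX it was 0, with a highest value of 41.2. The 3 genes therefore ranged from a peak in each of these lists to almost none.

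**Figure D1:**
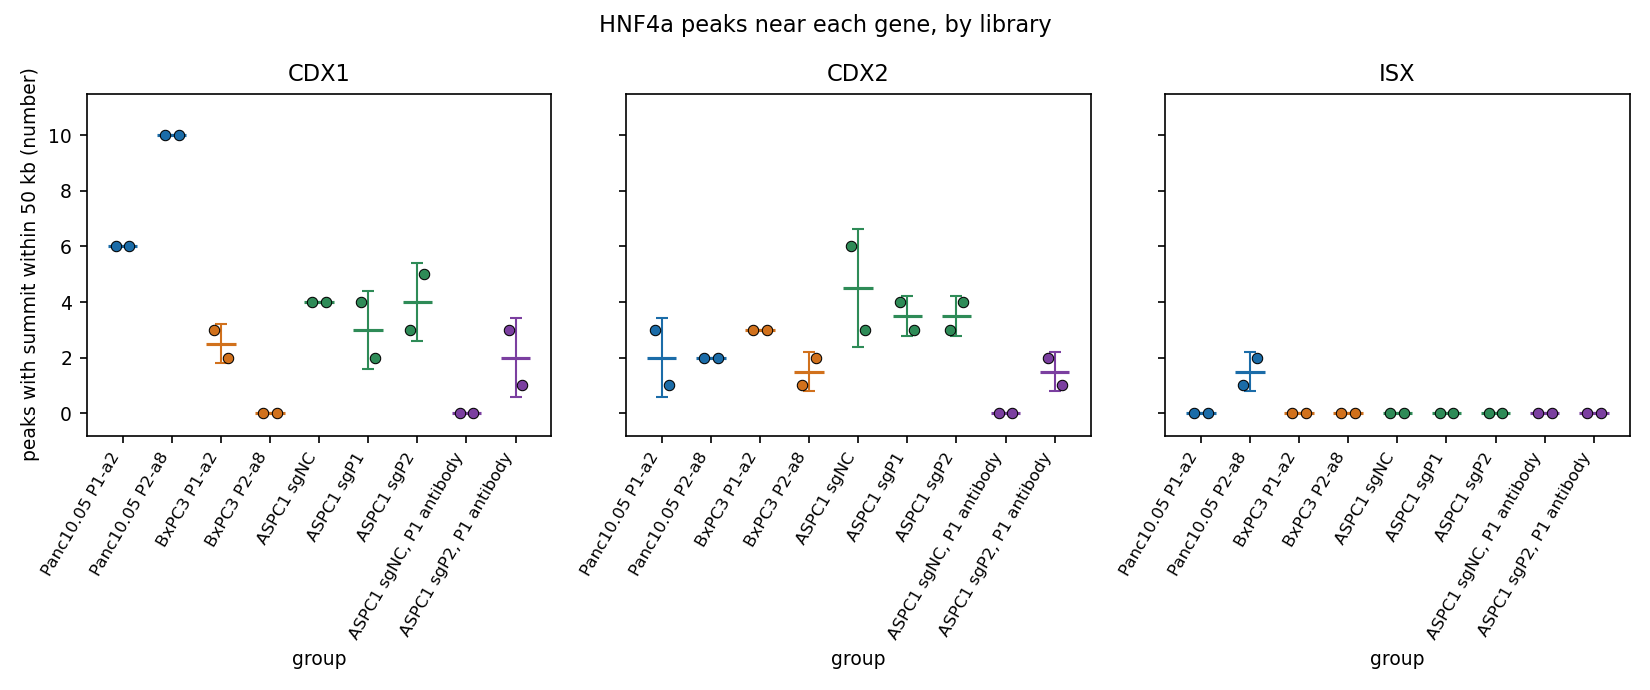
Number of HNF4α peaks with a summit within 50 kb of CDX1, CDX2 and ISX (y axis, peaks per library) in each group (x axis). Points are the 2 libraries of a group, bars their mean and error bars the SD; CDX1 has 10 peaks in both Panc10.05 P2-a8 libraries and 0 in both BxPC3 P2-a8 libraries.

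A gene was called bound in a group when both of its libraries had a peak within 50 kb. CDX1 and CDX2 were called with P1-a2 in Panc10.05, where 74.5% of all protein-coding genes were. All 3 genes were called with P2-a8 in Panc10.05 (background 79.5%). In BxPC3, CDX1 and CDX2 were called with P1-a2 (background 76.6%), and CDX2 alone of the 3 with P2-a8 (background 45.4%). In ASPC1 with the pan-HNF4α antibody, CDX1 and CDX2 were called in sgNC (58.5%), sgP1 (50.6%) and sgP2 (52%). The P1 antibody called none of the 3 genes in sgNC (2.31%), and CDX1 and CDX2 in sgP2 (23.7%). With a −log10 q of at least 8, near the floor of the induced-line lists, the P1 antibody called none of the 3 in sgP2. With the 8 induced-line lists at 12681 peaks each, CDX1 alone of the 3 was called in both Panc10.05 groups, and CDX2 alone in both BxPC3 groups. The share of all genes called was not counted at either setting, so those calls have no background beside them. Against backgrounds above 45% in each pan-HNF4α group, a call by itself does not set these genes apart.

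CDX1 lies on chromosome 5 at chr5:150166778-150184558 (GRCh38), between PDGFRB, a receptor tyrosine kinase gene, and SLC6A7, a proline transporter gene. Of its 15 sites, 2 were inside CDX1 and 6 had CDX1 as the nearest protein-coding gene. Most of the other sites lay inside PDGFRB or SLC6A7, so the 50 kb rule does not say which gene a site acts on.

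The site found in the most lists was at chr5:150121735-150122588, inside PDGFRB and 44.5 kb from CDX1. It was present in 12 lists: all 4 of Panc10.05, all 6 ASPC1 pan-HNF4α lists and both P1-antibody lists of sgP2. It was in no BxPC3 list. Its percentiles were 90.5 and 94.9 in sgNC, 67.1 and 87.2 in sgP1, and 80.1 and 83.4 in sgP2. In Panc10.05 they were 80.4 and 91.1 with P1-a2, and 50.5 and 82.7 with P2-a8. With the P1 antibody in sgP2 they were 25.9 and 43.7. The site was thus at or above the middle of every pan-HNF4α list that held it. Of 78074 merged pan-HNF4α regions, 0.453% were in all 4 Panc10.05 and all 6 ASPC1 lists and in no BxPC3 list.

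On the lower-coordinate side of CDX1, the nearest site found in both libraries of a group was chr5:150163156-150164175, 2.82 kb from the gene. It was in 10 lists: all 6 ASPC1 pan-HNF4α lists, both P2-a8 lists and 1 P1-a2 list of Panc10.05, and 1 P1-antibody list of sgP2. Its percentiles were 77.9 and 70.8 in sgNC, 75.3 and 50.6 in sgP1, and 34.6 and 77.2 in sgP2. In Panc10.05 they were 28.1 with P1-a2, and 48.2 and 54.6 with P2-a8. No BxPC3 list had this site either.

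Inside CDX1 itself, the site at chr5:150173117-150173608 was in all 4 Panc10.05 lists and both BxPC3 P1-a2 lists, and in no ASPC1 list. Its percentiles were 36.7 and 53.2 with P1-a2 and 61.0 and 61.7 with P2-a8 in Panc10.05, and 78.6 and 54.6 in BxPC3. The summits of these 6 peaks spanned 38 bp. In Panc10.05, 38% of 49247 merged regions were in all 4 lists, and in BxPC3, 28.2% of 47225 were in both P1-a2 lists and neither P2-a8 list. A further site inside CDX1, chr5:150174942-150175572, was found in both P2-a8 lists of Panc10.05 alone, at percentiles 50.2 and 67.4. So the gene-internal sites were seen in the induced lines and the site 2.82 kb away was seen in ASPC1 and Panc10.05.

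In Panc10.05, 3 of the sites near CDX1 were in both P2-a8 lists and neither P1-a2 list. They were the second site inside CDX1, the site at chr5:150185218-150185713, 0.92 kb past its higher-coordinate end, and the site at chr5:150191883-150192427 inside SLC6A7. The site 0.92 kb away had percentiles 58.1 and 35.2 with P2-a8 and was also in 1 sgP2 list, at 40.2. The SLC6A7 site had percentiles 57.1 and 64.8. Of 49247 merged Panc10.05 regions, 10.9% were in both P2-a8 lists and neither P1-a2 list, and 3.64% were the other way round. The opposite pattern was seen at 1 CDX1 site, chr5:150208561-150209080 inside SLC6A7, at percentiles 1.12 and 28.1 with P1-a2. That site was also in 5 of 6 ASPC1 pan-HNF4α lists, where its percentile ran from 1.32 to 48.0, and in 1 P1-antibody list of sgP2, at 16.3.

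The remaining CDX1 sites found in both libraries of a group lay in PDGFRB. The site at chr5:150130004-150130698 had percentiles of 97.8 and 76.8 with P2-a8 and was in 1 of the P1-a2 lists of Panc10.05, at 64.1. The site at chr5:150141808-150143795 was in all 4 Panc10.05 lists, at 45.3 and 43.5 with P1-a2 and 95.8 and 90.4 with P2-a8, and in both BxPC3 P1-a2 lists, at 13.3 and 62.0. Its summits spanned 781 bp, so it may join more than 1 binding position. The site at chr5:150117030-150117744, 49.5 kb from CDX1, was in the 4 Panc10.05 lists alone (3.15% of the 78074 regions), at percentiles 9.77 to 45.7. The 2 sites with the highest P2-a8 percentiles of the locus thus lay inside the receptor gene, not in CDX1.

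**Figure D2:**
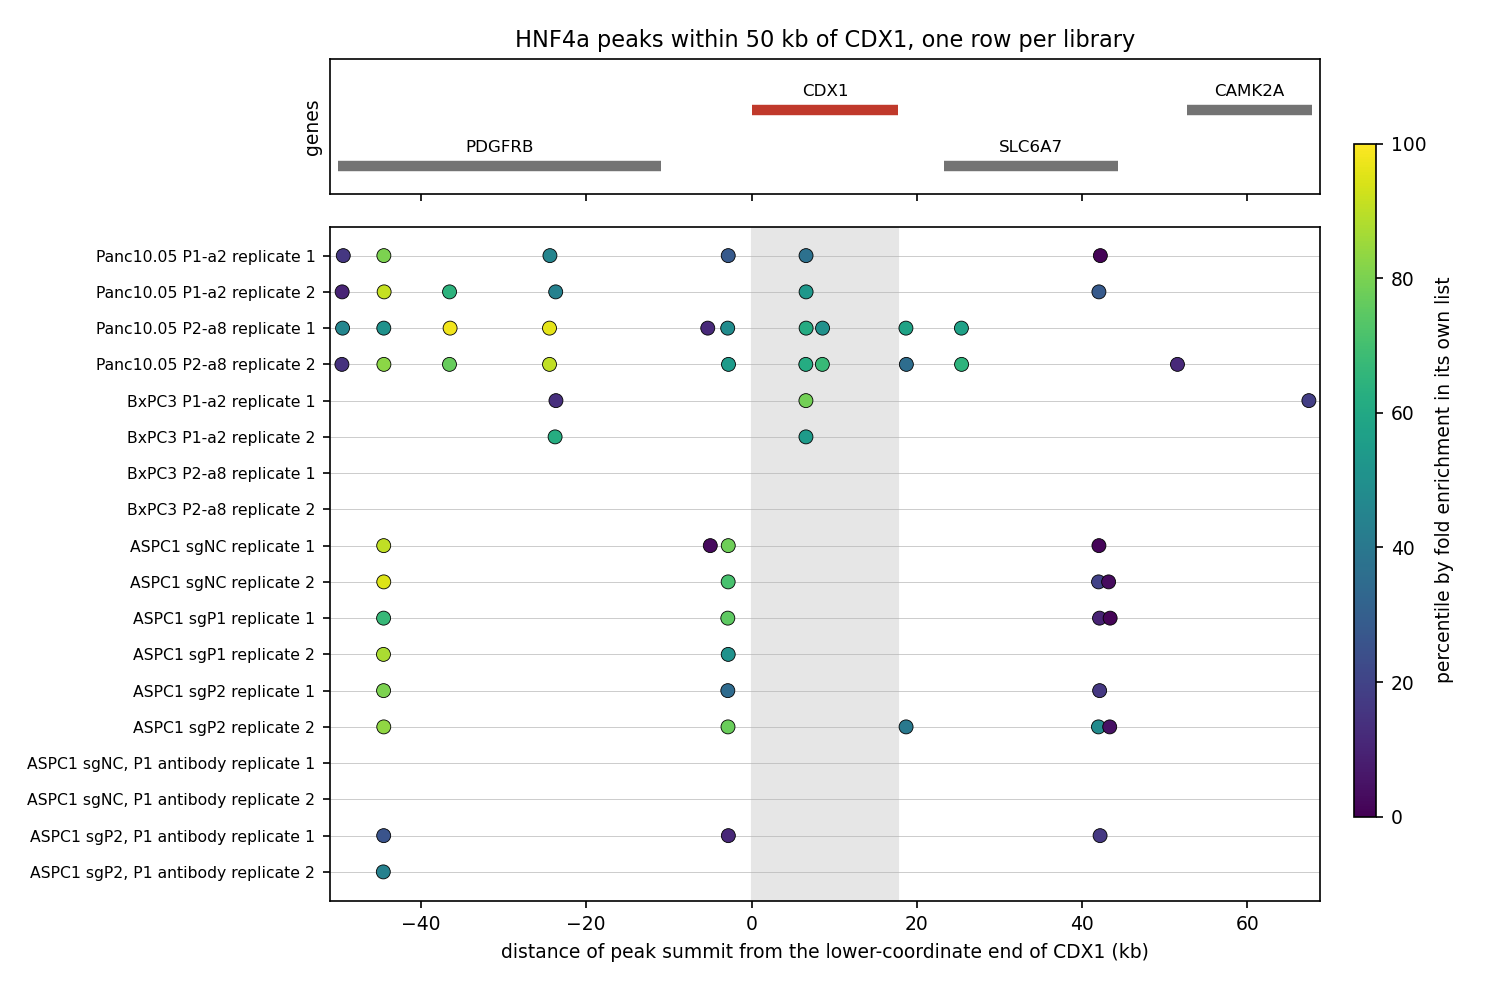
HNF4α peaks around CDX1, one row per library. The x axis is the distance of each summit from the lower-coordinate end of CDX1 (kb), the shaded band is CDX1, bars above are neighbouring genes, and colour is the percentile by fold enrichment within the peak's own list; the column 44.5 kb below the gene is filled in Panc10.05 and ASPC1 and empty in BxPC3.

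The number of CDX1 peaks per library followed the isoforms in opposite directions in the 2 induced lines. Panc10.05 had 6 and 6 peaks with P1-a2 against 10 and 10 with P2-a8. BxPC3 had 3 and 2 peaks with P1-a2 against 0 and 0 with P2-a8. Groups did not overlap in either line. The difference, P1-a2 minus P2-a8, was -4 peaks in Panc10.05 and 2.5 in BxPC3, each with an exact permutation p of 0.333, the smallest that 2 against 2 libraries allow. For 23.9% of all genes the Panc10.05 counts were lower with P1-a2 without overlap, and for 58% the BxPC3 counts were higher. Both patterns together held for 15.7% of genes. In each line the group with more CDX1 peaks had the longer lists on average, and with each line's lists at equal length (24828 peaks in Panc10.05, 12681 in BxPC3) the differences were -3 and 0.5.

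The 2 isoform differences differed by -6.5 peaks (exact permutation p = 0.0556, two-sided, the smallest that 36 labellings allow), a comparison added after the data were seen. With all 8 lists at 12681 peaks the difference was -2.5 (exact p = 0.333). Over both lines, P1-a2 had 4.25 ± 2.06 and P2-a8 5.00 ± 5.77 CDX1 peaks per library (SD, n = 4), and the exact permutation p was 0.556. Panc10.05 had 8.00 ± 2.31 and BxPC3 1.25 ± 1.5 CDX1 peaks per library (SD, n = 4). The 4 Panc10.05 libraries were all higher, as for 12.9% of genes, and the difference of 6.75 had an exact permutation p of 0.0556, again the smallest of 36 labellings within isoform. It was 2.25 at equal length (exact p = 0.111). In both BxPC3 P2-a8 lists the nearest peak to CDX1 was 104 and 174 kb away. A gene without a BxPC3 P2-a8 peak and with a peak in all 4 Panc10.05 lists was not rare, at 17.4% of all genes.

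CDX2 lies on chromosome 13, on the minus strand, at chr13:27960918-27969315 (GRCh38), in the ParaHox cluster with PDX1. Between CDX2 and PDX1 lies the long non-coding RNA gene LINC00543. The sequences shown are the 250 bases before the start of CDX2 and before the start of LINC00543, because these are the promoter windows of the locus that a peak overlapped. They are from RefSeq (GRCh38.p14), each 5′ to 3′ on the strand of its gene, and capitals mark CAAAG on either strand.
CDX2, chr13:27969316-27969565, minus strand: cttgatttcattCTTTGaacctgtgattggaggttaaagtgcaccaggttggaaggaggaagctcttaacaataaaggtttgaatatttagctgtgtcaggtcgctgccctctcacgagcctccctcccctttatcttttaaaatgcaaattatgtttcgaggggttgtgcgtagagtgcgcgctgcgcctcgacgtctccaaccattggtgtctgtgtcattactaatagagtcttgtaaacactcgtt
LINC00543, chr13:27953276-27953525, plus strand: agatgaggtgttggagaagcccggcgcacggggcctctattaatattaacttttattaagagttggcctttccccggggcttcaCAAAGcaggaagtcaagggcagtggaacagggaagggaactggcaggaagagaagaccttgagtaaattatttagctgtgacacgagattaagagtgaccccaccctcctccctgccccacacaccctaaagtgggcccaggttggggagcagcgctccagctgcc
CAAAG is the shared core of HNF4-type motifs. It occurred 1 time in each window, at position -238 from the start of CDX2 on the opposite strand and at position -166 from the start of LINC00543 on the gene's strand, and in 42.1% of 34943 windows of the same length before gene starts. The longer form CAAAGTCCA, which contains that core, was in neither window and in 0.326% of all windows, and the half-site AGGTCA was in neither and in 12.1% of all. The 250 bases before the start of ISX held none of the 3 motifs. Both strands were searched, and a match is a description of the letters in the window only. No peak summit lay inside the CDX2 or the LINC00543 window. For CDX1 and PDX1 no promoter window was available to search.

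The site at the LINC00543 start was chr13:27952775-27954086, 7.80 kb from CDX2. It was in all 6 ASPC1 pan-HNF4α lists and both P1-antibody lists of sgP2, and in none of the 8 induced-line lists. Its median summit was 412 bp before the LINC00543 start, and the 8 peaks covered 1 to 250 bp of the window printed above. Percentiles were 79.6 and 68.1 in sgNC, 68.4 and 67.9 in sgP1, and 22.6 and 69.2 in sgP2. With the P1 antibody in sgP2 they were 37.6 and 31.0. A second site had the same distribution over the pan-HNF4α lists, at chr13:27917216-27918367, 43.3 kb from CDX2 but 2.36 kb from PDX1. Its percentiles were 74.7 and 63.4 in sgNC, 80.4 and 42.5 in sgP1, and 61.9 and 60.1 in sgP2, and 1 P1-antibody list of sgP2 held it at 35.7. Of 78074 pan-HNF4α regions, 1.19% were in all 6 ASPC1 lists and no induced-line list.

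The reverse distribution was found between them. The site at chr13:27933018-27933736, 27.6 kb from CDX2 and 6.99 kb from PDX1, was in all 8 induced-line lists and in no ASPC1 list. Its percentiles were 29.1 and 15.2 with P1-a2 and 36.2 and 17.5 with P2-a8 in Panc10.05. In BxPC3 they were 95.2 and 95.1 with P1-a2, and 37.0 and 81.2 with P2-a8. The site was thus among the strongest peaks of both BxPC3 P1-a2 lists and in the lower part of all Panc10.05 lists. Of the 78074 regions, 2.45% were in all 8 induced-line lists and no ASPC1 list. Induction and cell line cannot be told apart in this comparison.

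A site at the 3′ end of CDX2, chr13:27960351-27961209, was shared by all 3 lines. Its median summit was 35 bp outside the gene, and its summits in 12 of the 14 pan-HNF4α lists spanned 105 bp. Percentiles in the induced lines were 6.49 in 1 P1-a2 list of Panc10.05, 68.7 and 32.9 with P2-a8, 83.8 and 79.4 with P1-a2 in BxPC3, and 94.5 in 1 P2-a8 list of BxPC3. In ASPC1 they were 82.2 and 51.4 in sgNC, 68.2 and 69.8 in sgP1, and 65.3 and 57.2 in sgP2. Neither P1-antibody list of sgP2 held it. The lists without it were 1 of Panc10.05 P1-a2 and 1 of BxPC3 P2-a8, the other library of each group having it. The share of all merged regions with such a distribution was not counted.

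The start of CDX2 had much less signal. A peak at chr13:27969439-27969832, with its summit 349 bp before the start, was in 1 sgNC list, at percentile 32.3 and a −log10 q of 7.08, and overlapped the CDX2 window printed above by 127 bp. The same list also had a peak inside CDX2, away from its 3′ end, at percentile 1.88. Neither was found in the other sgNC library, whose list was shorter.

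**Figure D3:**
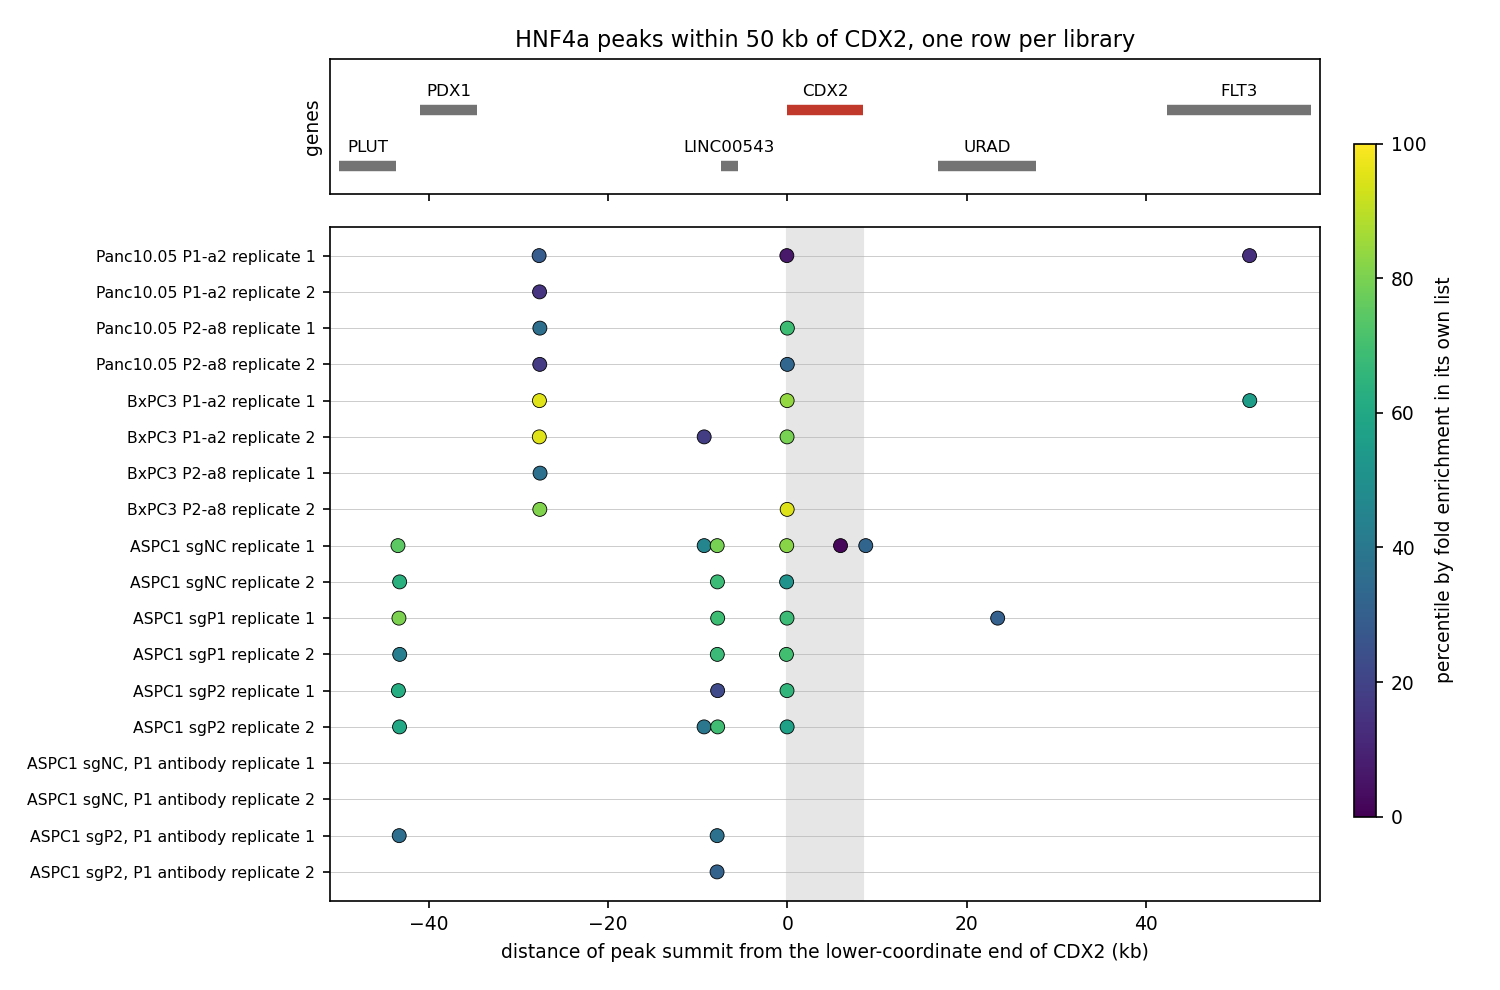
HNF4α peaks around CDX2, one row per library, drawn as for CDX1. The x axis is the distance of each summit from the lower-coordinate end of CDX2 (kb), which is the 3′ end of this minus-strand gene; the column at 27.6 kb below the gene is filled in all 8 induced-line libraries, and those at 43.3 and 7.80 kb in all 6 ASPC1 pan-HNF4α libraries.

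No library had more than 6 CDX2 peaks. Panc10.05 had 3 and 1 peaks with P1-a2 and 2 and 2 with P2-a8 (difference 0, exact permutation p = 1). BxPC3 had 3 and 3 with P1-a2 and 1 and 2 with P2-a8, a difference of 1.5 (exact p = 0.333) without overlap, as for 58% of genes, and 0.5 at equal list length. Over both lines the difference was 0.75 (exact p = 0.444), and 0 at equal length. Panc10.05 had 2.00 ± 0.82 and BxPC3 2.25 ± 0.96 CDX2 peaks per library (SD, n = 4; exact permutation p = 1). As for CDX1, each of these SDs spans both isoforms, and line and dose cannot be told apart. The difference between the 2 lines' isoform differences was -1.5 (exact p = 0.444).

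Of the 6 sites shared by both ASPC1 sgNC lists, 5 were in every list of both other guides. The share over all 13688 regions in both sgNC lists was 54.5%. With the pan-HNF4α antibody CDX1 had 4 and 4 peaks in sgNC, 4 and 2 in sgP1, and 3 and 5 in sgP2. CDX2 had 6 and 3 peaks in sgNC, 4 and 3 in sgP1, and 3 and 4 in sgP2. The ranges overlapped in each case. The differences from sgNC were -1 for CDX1 and -1 for CDX2 with sgP1, and 0 and -1 with sgP2, each with an exact permutation p of 1. These comparisons share the sgNC libraries. Without the first sgNC library, the one with 6 CDX2 peaks and the longest ASPC1 list, both CDX2 differences were 0.5, as they were at equal list length. Both sgNC, both sgP1 and both sgP2 lists held 5 sites in common: 2 near CDX1, at 44.5 and 2.82 kb, and 3 near CDX2, at 43.3 kb, at 7.80 kb and at the 3′ end.

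With the P1 antibody neither gene had a peak in sgNC. In sgP2 CDX1 had 3 and 1 peaks and CDX2 had 2 and 1, without overlap with sgNC, as for 20.1% of genes. The differences were 2 and 1.5 peaks, each with an exact permutation p of 0.333, the smallest possible. Cut to 260 peaks, the length of the shortest sgNC list, all 4 lists had no peak near either gene, so at that length no difference was detectable. Each of the 7 peaks of the P1 antibody coincided with a peak of both pan-HNF4α libraries of sgP2, with summits 10 to 195 bp apart. The share of P1-antibody peaks elsewhere that did so was not counted, so this overlap does not set these loci apart. The sites seen by the P1 antibody in both sgP2 libraries were the one 44.5 kb from CDX1 and the one at the LINC00543 start.

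Within sgP2, the P1 antibody gave fewer peaks than the pan-HNF4α antibody near CDX2, 2 and 1 against 3 and 4, without overlap, as for 37.3% of genes (difference -2, exact permutation p = 0.333). With each list cut to 3916 peaks the counts were 2 and 1 against 0 and 0, and the difference turned to 1.5 (exact p = 0.333). Near CDX1 the counts were 3 and 1 against 3 and 5 (difference -2, exact p = 0.667), and -0.5 at equal length. After Benjamini-Hochberg adjustment over the 24 tests, 3 genes in 8 comparisons, the lowest adjusted exact permutation p was 0.8.

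ISX lies on chromosome 22 at chr22:35066158-35087387 (GRCh38), with no other protein-coding gene in its 50 kb window. It had 1 and 2 peaks in the P2-a8 lists of Panc10.05 and 0 in the other 16 lists. The site at chr22:35033691-35033984, 32.3 kb from ISX, had percentiles of 41.2 and 2.07. A second site at chr22:35111363-35111635, 24.04 kb away, was in 1 of these lists, at percentile 34.6. The difference, P1-a2 minus P2-a8, was -1.5 peaks in Panc10.05 (exact permutation p = 0.333). The groups did not overlap, as for 23.9% of genes. In the other 12 pan-HNF4α lists the nearest peak to ISX was at least 212.53 kb away. No peak within 50 kb in all 6 ASPC1 pan-HNF4α and all 4 BxPC3 lists was a property of 9.03% of genes, and 6% had none in any of the 14. ISX thus had 3 peaks in all, in 1 group, none above percentile 41.2.

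The 50 kb limit left out a few peaks just beyond it. The outermost CDX1 sites inside lay at 49.5 and 49.7 kb. Just outside, the 4 Panc10.05 lists had a peak 53.6 to 53.7 kb from CDX1, and 1 sgP1 list had one at 51.4 kb. For CDX2, 3 BxPC3 lists had a peak 53.5 to 53.6 kb away. None of the 18 lists had a peak within 50 kb of ISX other than those described.

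Genes that work with these factors were examined in 4 lists of 43 genes. Of the 16 genes commonly described as CDX targets in intestine, 12 were called with P1-a2 in Panc10.05 (74.5% of all genes) and 12 with P2-a8 (79.5%). In BxPC3, 13 were called with P1-a2 (76.6%) and 9 with P2-a8 (45.4%). In ASPC1, 11 were called in sgNC (58.5%), 10 in sgP1 (50.6%) and 11 in sgP2 (52%). Their highest median percentiles over the 14 pan-HNF4α lists were those of CDH17, an intestinal cadherin (96.7), GPA33, a surface antigen of gut epithelium (96.3), VIL1, the microvillar protein villin (95.3), and MUC13, a membrane mucin (94.2). SI and LCT, the brush-border disaccharidases sucrase-isomaltase and lactase, had no peak in any pan-HNF4α list. Each of those top 4 genes stood above CDX1 and CDX2 in median percentile, the value by which they were picked. Other targets of the 16 lay below both genes, and some had no site at all.

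Of the 8 genes described as repressed by ISX or otherwise handling carotenoids and vitamin A, 7 were called in both Panc10.05 groups, in BxPC3 P1-a2, and in sgNC and sgP2 of ASPC1. The number was 6 in sgP1 and 5 in BxPC3 P2-a8, beside the same shares of all genes. RDH5, a retinol dehydrogenase, had a median percentile of 93.7, and SCARB1, the scavenger receptor that takes up carotenoids, 93.6. CD36, a fatty acid transporter, had 92.6 and STRA6, a retinol transporter, 83.8. BCO1, the carotenoid cleavage enzyme that ISX represses, had 57.8, with a peak in 12 of 14 lists. LRAT, which esterifies retinol, had no peak. Peaks near SCARB1 and BCO1 were therefore present in lists where ISX itself had none.

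Among 15 other intestinal and endodermal transcription factors, 10 were called with P1-a2 in Panc10.05 (74.5% of all genes) and 9 with P2-a8 (79.5%). In BxPC3, 12 were called with P1-a2 (76.6%) and 7 with P2-a8 (45.4%). In ASPC1 8 were called in sgNC (58.5%), 6 in sgP1 (50.6%) and 6 in sgP2 (52%). CREB3L3, a lipid-responsive factor, had the highest median percentile of those given here (97.8), followed by ELF3 (88.9), an epithelial ETS factor, HNF4G (85.4), the HNF4α paralogue, and VDR (84.3), the vitamin D receptor. ATOH1, the secretory lineage factor, had no peak. Of the 4 other ParaHox and CDX-family genes, 3 were called in each pan-HNF4α group except Panc10.05 P1-a2, with 2, and BxPC3 P2-a8, with 1. These counts stand beside the same shares of all genes. GSX2 had a median percentile of 78.4 and GSX1 33.0, CDX4 had no peak, and PDX1 had 69.0, equal to CDX2 because the 2 windows share their strongest peaks. With the P1 antibody, 0 genes of the 4 lists were called in sgNC (2.31% of all genes). In sgP2 it called 6 CDX targets, 4 vitamin A genes, 4 other factors and 1 ParaHox gene, where 23.7% of all genes were called. No test was made of any list against other genes.

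**Figure D4:**
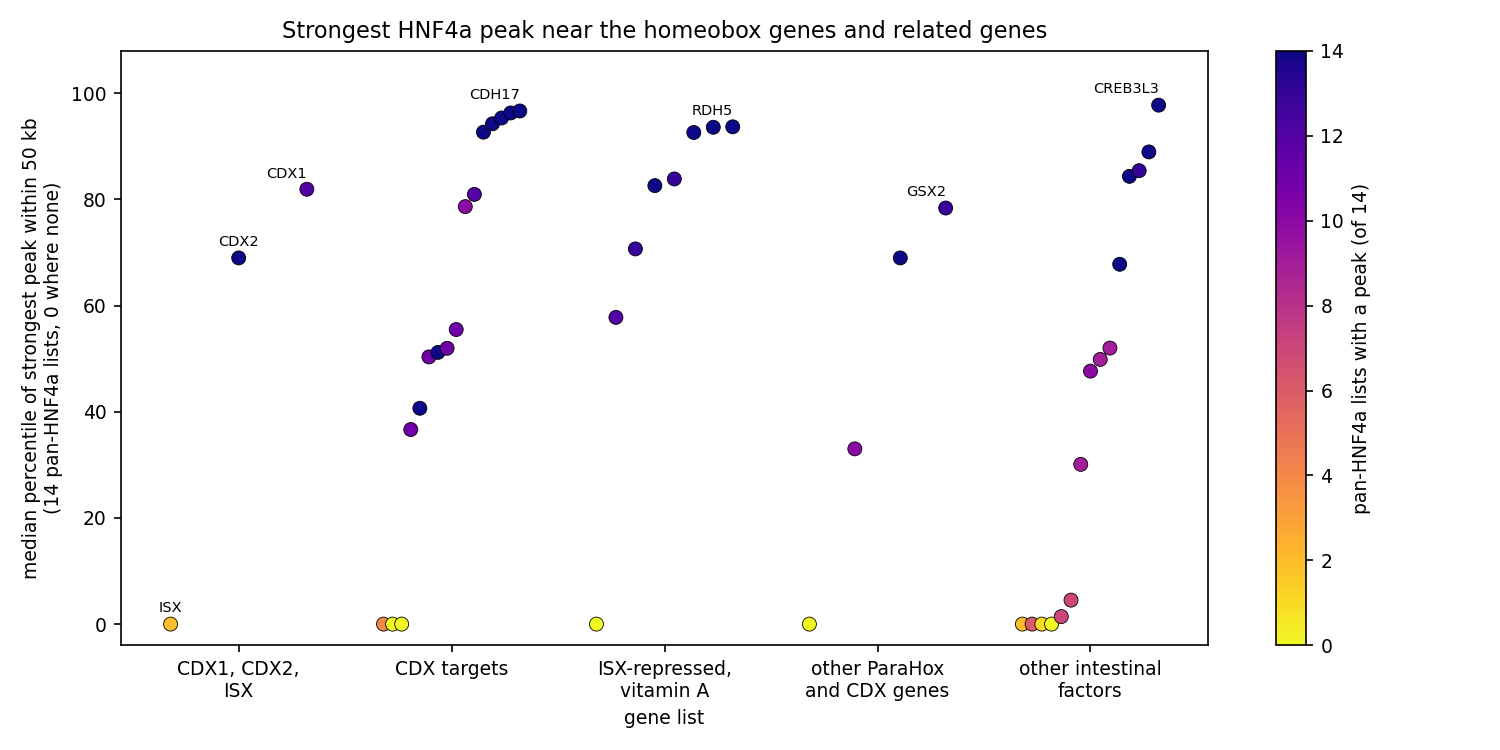
Median percentile of the strongest HNF4α peak within 50 kb over the 14 pan-HNF4α lists (y axis, 0 where a list has no peak) for CDX1, CDX2, ISX and the genes of 4 related lists (x axis). Each point is a gene and colour is the number of lists with a peak. CDX1 (81.9) and CDX2 (69.0) lie below CREB3L3 (97.8) and CDH17 (96.7), each the highest shown for its list, and ISX is at 0.

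Likeness to each member was ranked among protein-coding genes on other chromosomes only. Neighbours with overlapping windows, such as PDX1 for CDX2, were therefore left out. Among the genes ranked, those whose strongest-peak percentiles followed CDX1 most closely over the 14 pan-HNF4α lists were PLD4 (Spearman's rho 0.943), DHCR7 (0.937) and C4orf33 (0.937). For CDX2 they were RAP2B (0.908), LOC128071544 (0.882) and EIF2AK4 (0.881). In all, 5 genes had a rho with CDX2 at or above that of EIF2AK4, itself included, and ties were taken by symbol. These rhos are descriptions over lists that share lines and lengths. For ISX, 37 genes were tied at a rho of 1, which rests on the 2 Panc10.05 P2-a8 lists that alone had a peak.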

How the data were processed

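HNF4α ChIP-seq peaks of 18 libraries were used, 1 deposited peak list per library, so peaks were called per library and not on pooled replicates. Per the submitters' processing notes, Bowtie2 2.2.9, MACS2 2.2.7 and the builds hg38 and mm10 were used, with no role given. The control used for calling and the read depth are not given in the sources used here. In the deposited lists the fold enrichment is a linear ratio, p- and q-values are on a −log10 scale, and the score is 10 times the −log10 q, rounded down. These are the authors' values, and they were used only within a list. Samples were grouped by labelled line, genotype and antibody. For the BxPC3 P2-a8 libraries the titles name P1 with a8, and the genotype label was used. The most similar pair of lists shared 0.0192% of peaks exactly, so no library was counted as a repeat.

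Summits were set against RefSeq gene spans (GRCh38.p14, treated as the hg38 of the notes), and 250-base promoter windows came from the same release. Peak numbers were compared by exact permutation (two-sided), and p-values were adjusted over 24 tests (Benjamini-Hochberg). The text names the 3 genes and every site found in both libraries of a group with its nearest gene. It also names up to 4 genes of each related list by median percentile. For each member it names the 3 most alike genes on other chromosomes by Spearman's rho, ties by symbol. Single-list sites at CDX2, and genes without a peak, BCO1 and GSX1, were named after their values were seen. The members and lists were chosen with earlier results of these data known. Alternatives were a 10 kb window, a −log10 q of at least 8 or 20, lists of equal length by fold, leaving out each library, a replicate block, all splits of the 8 induced-line libraries, and other definitions of a site. Added after the data were seen were the comparison of the isoform differences and a call rule with the induced-line lists at equal length. Same-numbered libraries do not come from a stated shared source. Code was written in Python 3.11.15 with scipy 1.17.1. It was checked against brute-force counts, and against bedtools 2.31.1, with 0 differences. A further check used lists drawn at random from a single Panc10.05 P2-a8 list, without the spread between real libraries. Over 20033 genes the code recovered 200 of 200 genes given 10 added peaks. That is more peaks than any difference reported here, so the recovery of smaller differences was not checked. Input libraries were not analysed here. An item of the related lists is not reported here.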

Additional observations from a re-analysis of the deposited data

Results flagged for a closer look

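The isoform difference in CDX1 peaks, P1-a2 minus P2-a8, had opposite signs in the 2 induced lines. Every Panc10.05 P1-a2 library had fewer peaks than every P2-a8 library, and every BxPC3 P1-a2 library had more. The Panc10.05 difference minus the BxPC3 difference was -6.5 peaks (exact permutation p = 0.0556, the smallest that 36 labellings allow). It was -7 to -6 without each library in turn and -2.5 with all 8 lists at 12681 peaks (exact p = 0.333). The isoform with more CDX1 peaks had the longer lists on average in each line, although in Panc10.05 the list lengths overlapped (24828 and 34146 with P1-a2, 39111 and 33646 with P2-a8). Their part in the difference was not tested beyond that equal-length value. The same pattern as at CDX1, fewer peaks with P1-a2 in Panc10.05 and more in BxPC3 without overlap, was seen at 15.7% of all genes.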

How the results depend on the processing

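Depth is unknown, 2 libraries a group cannot give an exact p under 0.333, and list length and score threshold differ between groups, which limits every comparison of peak numbers. Of 279 alternative values of 27 differences, 245 kept their direction, or stayed at 0, and their side of the threshold of 0.05, 17 became 0, 6 turned and 1 passed the threshold. The other 10 moved off a reported difference of 0, from -1 to 1 for CDX2 between isoforms in Panc10.05 (5 values) and from -1 to 1 for CDX1 between sgP2 and sgNC (5 values). The cause was not tested for any of these except where fewer peaks or libraries were used by construction.

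At 10 kb the ISX differences became 0 in Panc10.05, over both lines, between the lines and for the isoform differences compared. At equal list length the differences became 0 for CDX2 and ISX over both lines, for ISX between the lines and for its isoform differences compared, for CDX1 between sgP1 and sgNC, and for both CDX1 and CDX2 between sgP2 and sgNC with the P1 antibody. The last were also 0 at a −log10 q of at least 20. At a −log10 q of at least 8, CDX1 between sgP1 and sgNC and CDX2 between sgP2 and sgNC were 0. Differences turned at equal length to 0.5 for CDX2 with sgP1 and with sgP2 against sgNC, and to 1.5 for CDX2 between antibodies in sgP2. Without each library in turn, CDX2 between Panc10.05 and BxPC3 ran from -0.75 to 0.25 (0.25 without the second Panc10.05 P1-a2 library), CDX1 between sgP1 and sgNC from -2 to 0, and CDX2 with either guide from -2.5 to 0.5 (0.5 without the first sgNC library). Over all 70 splits of the 8 induced-line libraries, the CDX1 difference of 6.75 between the lines had an exact permutation p of 0.0286. That is the smallest p these splits allow, and it was not adjusted. The splits ignore isoform, within which the planned comparison permuted labels (exact permutation p = 0.0556). Every Panc10.05 library was higher at CDX1, as for 12.9% of genes.

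Of the 3 genes, the number called at 10 kb was 1 with Panc10.05 P1-a2 and 2 with P2-a8, where ISX was no longer called. It was 0 with BxPC3 P2-a8 and 1 with the P1 antibody in sgP2. It was 0 with the P1 antibody in sgP2 at a −log10 q of at least 8 or 20, and 1 in sgP1 at 20. With the pan-HNF4α lists at 11686 peaks, or the induced-line lists at 12681, it was 1 with Panc10.05 P1-a2 and 1 with P2-a8 (CDX1 in both), and 1 with BxPC3 P1-a2 (CDX2). The share of all genes called at these settings was not counted. The number of sites was 28 under either other definition, against 26.

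With the replicate number as a block no exact p was under 0.125 (CDX1 between the lines, difference 6.75), and 0.5 was the smallest for 2 groups of 2. Deviations of same-numbered libraries from their group means, over the peak counts of all genes, correlated at -0.299 to 0.188, and the numbers were not taken to pair the libraries.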
